A study of Homo sapiens with 12 samples.

Results

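The 48 genes described here encode proteins of the adherens junctions, tight junctions and desmosomes of epithelial cells, proteins of apical-basal polarity, and surface proteases, adhesion proteins, transcription factors and trafficking proteins of the same cells. They were taken by name from a list that leaves out keratins. Each of the 48 was found once among the 60617 gene identifiers of the RNA-seq files. Of these, 43 passed a filter on low counts and were tested, and the other 5 (CLDN2, PKP1, CEACAM5, CEACAM6 and EHF) were at 0.812 CPM or less in every library, where CPM is the count relative to 1000000 counts of the library, after TMM scaling between libraries.

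The cells were HCT 116p53-/-, a p53-deleted derivative of a human colorectal carcinoma line, and a sub-line of it that the study's text describes as stably silenced for the ribosomal protein uL3 and that the labels give as RPL3 KO, after the gene that encodes uL3. Both lines therefore lacked p53. Cells of each line received vehicle or 5 nM actinomycin D (Act D), for 24 h according to the labels. At low doses Act D is known to inhibit the RNA polymerase that makes ribosomal RNA. Each of the 4 groups had 3 libraries that the labels call biological replicates, and the total per library was between 10087925 and 21138886 expected counts. The number of clones behind the sub-line and the density of the cells at harvest were not given in the sources used here, and the labels name RPL3 as the difference, so that a difference between the lines cannot be told apart from any other change that the sub-line acquired.

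The deposited counts of RPL3 itself did not set the lines apart. RPL3 was at 1151, 1121 and 1141 CPM in the vehicle-treated HCT 116p53-/- libraries and at 1188, 1337 and 1202 CPM in those labelled RPL3 KO, a log2 difference of 0.13 (SE 0.08, adjusted p = 0.155 in edgeR's quasi-likelihood test), and of -0.11 when libraries were scaled by their size alone. With Act D it was at 1137, 1132 and 1112 CPM against 1259, 1132 and 1279 CPM. The mean TPM of RPL3, a value per transcript length, was 776 against 590 with vehicle. Since the mRNA was present at these levels, the second line is called here by its label only. Of 12 markers of colon epithelium 8 were tested between the lines with vehicle. Of these, 6 were lower and 2 higher in the libraries labelled RPL3 KO, with a median log2 difference of -3.09. Over all genes tested, 36.2% were lower and 35.1% higher. EPCAM and CDH1 are among both the 12 markers and the 48 genes, and both were lower. LGR5, whose levels are given at the end, lay higher. KRT8 (714 to 1260 CPM) and KRT18 (576 to 984 CPM) were high in every library, whereas VIL1, CDX1, CDH17 and GPA33 were at 0.364 CPM or less in every library. KRT19 was at 564 to 672 CPM in HCT 116p53-/- libraries and at 28.6 to 41.7 CPM in those labelled RPL3 KO.

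In a polarized epithelium, cadherins joined to catenins hold neighbouring cells together at adherens junctions, desmosomes anchor the keratin filaments of a cell to those of the next, and claudins and occludin seal the space between cells at tight junctions. The Crumbs, Par and Scribble complexes set where the junctions form along the side of the cell. Cells that lose the epithelial state are known to lower E-cadherin and other junction genes, and repressors of the ZEB and SNAI families bind short E-box sequences in some of their promoters.

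With vehicle, 36 of the 48 genes were lower in the libraries labelled RPL3 KO than in HCT 116p53-/- cells, 5 were higher and 2 did not pass the test (adjusted p under 0.05, edgeR's quasi-likelihood test, adjusted after Benjamini and Hochberg over 15692 genes). Over all genes tested, 36.2% were called lower and 35.1% higher. Their median log2 difference was -2.11, against -0.02 over all genes tested. In none of the 36 did the libraries of the lines overlap. The share of genes without overlap was not counted over all genes tested, here or in the comparisons below. A lack of overlap is therefore not read as particular to these genes. A gene high in a single line passes the filter because of that line, and among the 29 tested genes with a mean of at least 1 CPM in both lines, 24 were lower, 4 were higher and 1 was not called, with a median of -1.71. In bulk RNA, fewer cells that express a gene and less RNA per cell cannot be told apart.

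**Figure D1:**
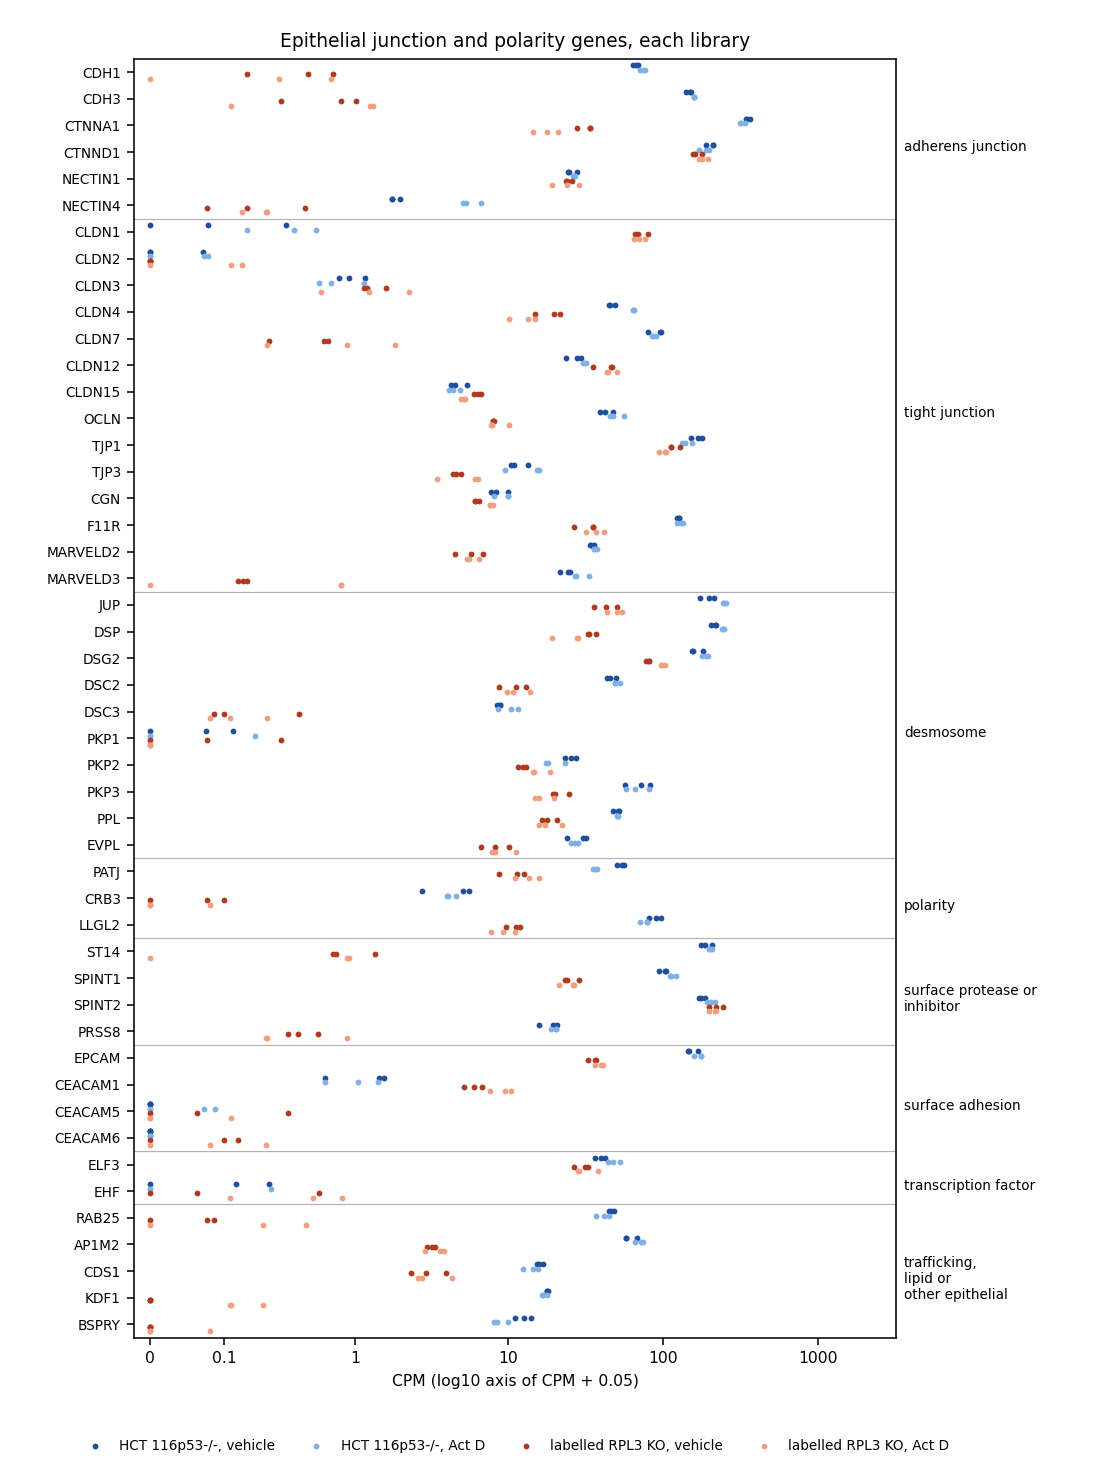
Level of each of the 48 genes in each of the 12 libraries, in CPM on a log10 axis of CPM + 0.05, with genes grouped by role and 1 point per library (dark blue, HCT 116p53-/- with vehicle; light blue, with Act D; dark red, labelled RPL3 KO with vehicle; light red, with Act D). Most genes have both blue groups to the right of both red groups, CLDN1 has them the other way round at 66.1 to 79.8 CPM with vehicle in the red group, and the shift with Act D within a line is small beside the distance between the lines.

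The size of the difference with vehicle varied widely among the genes. The mean of the libraries labelled RPL3 KO was under 2% of the mean of HCT 116p53-/- cells for 9 genes (BSPRY, KDF1, RAB25, CDH3, ST14, CLDN7, MARVELD3, CDH1 and CRB3), between 2% and 50% for 23 genes, between 50% and 100% for 5 genes and above 100% for 6 genes. CRB3 at 1.24% was the last gene under the 2% line, and DSC3 at 2.22% and PRSS8 at 2.29% were the first above it.

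**Figure D2:**
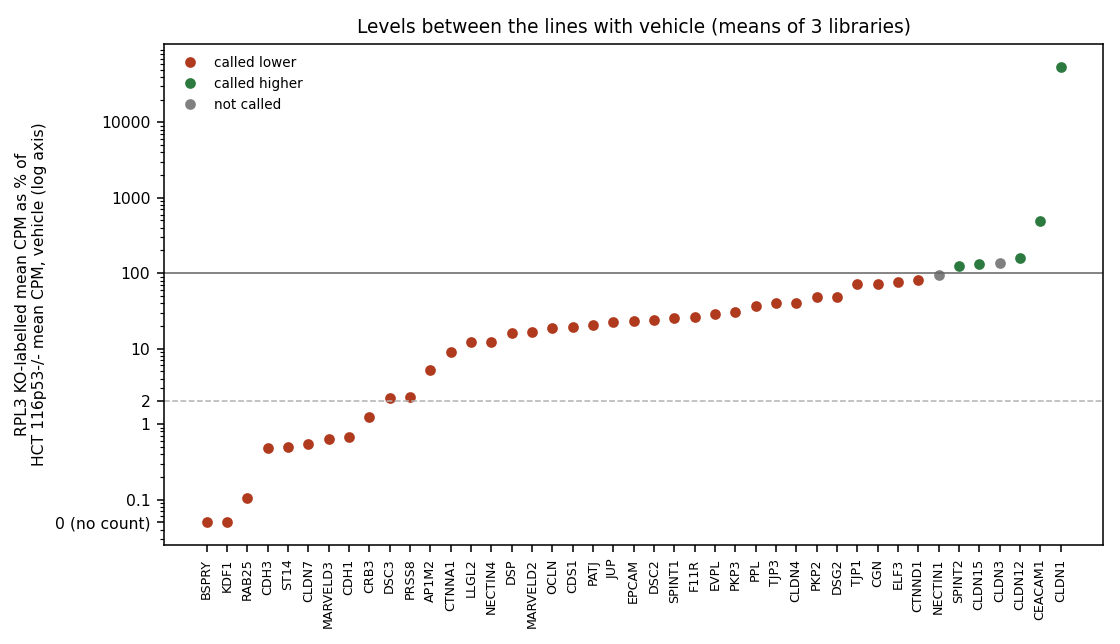
Mean CPM in the 3 vehicle-treated libraries labelled RPL3 KO as a percent of the mean in the 3 vehicle-treated HCT 116p53-/- libraries (log axis) for the 43 genes tested, in rising order, with red for genes called lower, green for genes called higher and grey for genes not called. The points run from no count for BSPRY and KDF1, through a continuous range between 2.22% and 81.4%, to 499% for CEACAM1 and far above it for CLDN1, and the dashed line marks 2%.

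Among the adherens junction genes, both classical cadherins of these cells were nearly absent from the libraries labelled RPL3 KO. CDH1, which encodes E-cadherin, was at 68.8, 64.3 and 67.3 CPM in HCT 116p53-/- cells and at 0.161, 0.701 and 0.473 CPM in the libraries labelled RPL3 KO. CDH3, which encodes P-cadherin, was at 140, 152 and 149 CPM against 0.803, 0.300 and 1.01 CPM. The groups did not overlap for either gene, and the log2 differences were -7.08 for CDH1 (SE 0.23, adjusted p = 1.33e-14) and -7.78 for CDH3 (SE 0.23, adjusted p = 5.1e-15). The 2 genes are neighbours on chromosome 16 of hg38 in the same orientation, CDH3 at 68636189 to 68727468 and CDH1 at 68737292 to 68835537, with 9.82 kb between them. CTNNA1, which encodes the alpha-catenin that links the cadherin complex to actin, was at 362, 343 and 345 CPM against 33.7, 28.0 and 33.9 CPM, a log2 difference of -3.46 (SE 0.11, adjusted p = 1.11e-14). The change was uneven within the complex, since CTNND1, which encodes the p120 catenin that stabilizes cadherins at the membrane, kept 81.4% of its HCT 116p53-/- level (log2 difference -0.30, adjusted p = 0.00509). NECTIN4, a nectin adhesion receptor, was at 1.75, 2.00 and 1.75 CPM against 0.161, 0.450 and 0.0675 CPM, and was lower by the test (log2 difference -2.84, adjusted p = 9.47e-06). NECTIN1, of the same family, overlapped between the lines at 24.7, 24.5 and 27.9 CPM against 26.1, 24.2 and 23.7 CPM, and did not pass the test (log2 difference -0.06, SE 0.12, adjusted p = 0.656).

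Of the 13 tight junction genes tested, 9 were lower and 3 higher, against 36.2% and 35.1% of all genes tested. CLDN7 was at 95.5, 97.0 and 80.6 CPM in HCT 116p53-/- cells and at 0.241, 0.650 and 0.608 CPM in the libraries labelled RPL3 KO (log2 difference -7.41, SE 0.23, adjusted p = 1.07e-14). CLDN1 went the other way, with 0.324, 0.0689 and 0 CPM against 66.1, 69.2 and 79.8 CPM (log2 difference 9.02, SE 0.27, adjusted p = 7.02e-15). Neither gene overlapped between the lines. CLDN4, a claudin of many simple epithelia, was lower, at 44.9, 48.9 and 45.6 CPM against 21.7, 19.8 and 15.1 CPM (log2 difference -1.30, adjusted p = 4.79e-08). Its neighbour CLDN3, which starts 29.3 kb away on chromosome 7, was at 0.778, 1.17 and 0.906 CPM against 1.61, 1.2 and 1.15 CPM, which overlapped and did not pass the test (adjusted p = 0.345).

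The other claudins differed by less. CLDN12 was higher at 35.5, 47.1 and 46.5 CPM against 29.8, 23.8 and 28.1 CPM in HCT 116p53-/- cells (log2 difference 0.66, adjusted p = 5.89e-05). CLDN15 was at 6.43, 6.05 and 6.68 CPM against 4.54, 5.44 and 4.29 CPM (log2 difference 0.43, adjusted p = 0.0277). The mean TPM (SD, n = 3) of CLDN12 was 7.41 ± 0.81 against 6.60 ± 1.2. That of CLDN15 was 2.00 ± 0.48 against 1.99 ± 0.33, and TPM was not tested. The call of CLDN15 was lost with DESeq2, with library size alone and without the filter, and also without vehicle replicate 1 or 3 of HCT 116p53-/- or replicate 3 of the libraries labelled RPL3 KO, and its adjusted p ranged from 0.018 to 0.334 over the alternatives. The proteins that span the membrane beside the claudins were all lower: occludin (OCLN) kept 18.6% of its level, tricellulin (MARVELD2) 16.6%, MARVELD3 0.625%, and the junctional adhesion molecule encoded by F11R 25.9%. The scaffold proteins below the membrane were lower by less, with TJP1 (ZO-1) at 71.3%, cingulin (CGN) at 71.7% and TJP3 (ZO-3) at 40.1%.

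Because claudins are compared with each other here, their levels were taken per transcript length, as the TPM that the authors deposited, and each was expressed as a percent of the summed TPM of 20 claudin genes in its library. With vehicle, CLDN7 made up 63.9% ± 2.8 (SD, n = 3) of the claudin transcripts of HCT 116p53-/- cells, CLDN4 24.0% ± 1.7 and CLDN12 8.10% ± 1.6. In the libraries labelled RPL3 KO these shares were 0.565% ± 0.39, 13.3% ± 3.4 and 16.4% ± 1.3. CLDN10, which is not among the 48 genes, held 36.0% ± 3.3 there and CLDN1 25.8% ± 1.8, against 0.0162% ± 0.028 and 0.0339% ± 0.049 in HCT 116p53-/- cells. The leading claudin thus changed from CLDN7 to CLDN10, and shares of this kind do not depend on how libraries are scaled to each other.

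**Figure D3:**
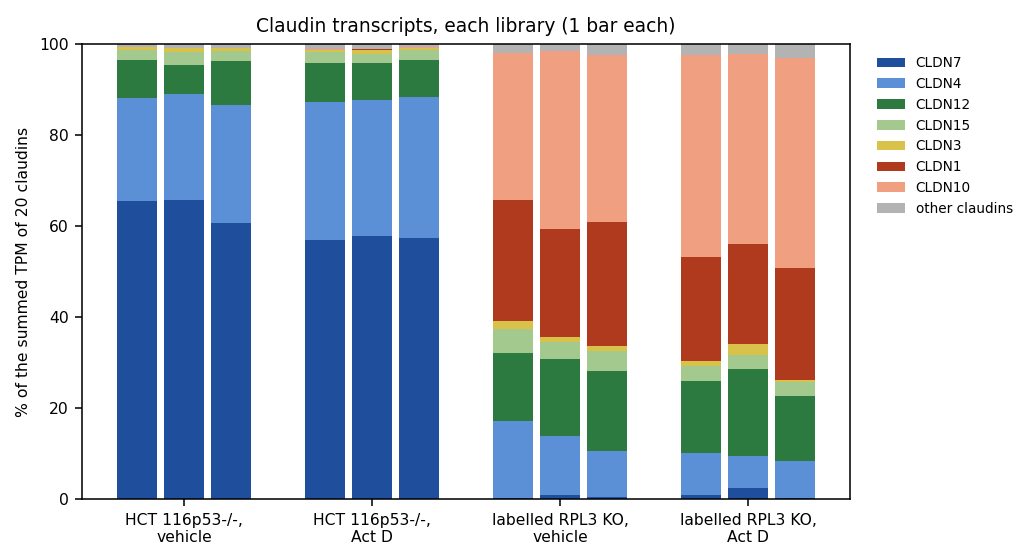
Share of each claudin in the summed TPM of 20 claudin genes, in percent, with 1 stacked bar for each of the 12 libraries in the 4 groups. In the 6 HCT 116p53-/- bars CLDN7 and CLDN4 fill most of the height, whereas in the 6 bars labelled RPL3 KO most of it is CLDN10, CLDN1 and CLDN12, and bars of one group resemble each other.

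All 9 desmosomal genes tested were lower, against 36.2% of all genes tested, and none overlapped between the lines. DSC3, a desmocollin, was at 8.88, 8.95 and 8.51 CPM in HCT 116p53-/- cells and at 0.0803, 0.10 and 0.405 CPM in the libraries labelled RPL3 KO (log2 difference -5.46, SE 0.33, adjusted p = 7e-11). DSP, which encodes the desmoplakin that binds keratin filaments, was at 205, 220 and 215 CPM against 37.3, 33.7 and 33.0 CPM (log2 difference -2.63, SE 0.11, adjusted p = 4.14e-13). The other 7 kept between 22.2% (JUP, plakoglobin) and 48.8% (DSG2, a desmoglein) of their level: DSC2 kept 23.9%, envoplakin (EVPL) 29.0%, plakophilin 3 (PKP3) 30.6%, periplakin (PPL) 36.8% and plakophilin 2 (PKP2) 48.6%. The 3 desmosomal cadherin genes among the 48 lie in one stretch of chromosome 18 and kept 2.22% (DSC3), 23.9% (DSC2) and 48.8% (DSG2). DSG2 held 74.0% ± 1.8 (SD, n = 3) of the summed TPM of the 7 desmosomal cadherin genes in HCT 116p53-/- cells and 87.5% ± 3.2 in the libraries labelled RPL3 KO.

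The 3 polarity genes were lower, against 36.2% of all genes tested. CRB3, the Crumbs protein of epithelia, was at 2.79, 5.16 and 5.62 CPM in HCT 116p53-/- cells and at 0, 0.10 and 0.0675 CPM in the libraries labelled RPL3 KO, where 3 counts were found in all against 211, a ratio of 71.4 with a 95% counting interval of 24.1 to 349. LLGL2, a basolateral protein of the Scribble group, was at 81.1, 97.5 and 90.9 CPM against 11.2, 12 and 9.72 CPM (log2 difference -3.03, SE 0.12, adjusted p = 1.99e-13). PATJ, a scaffold that binds the Crumbs complex, was at 56.1, 50.7 and 54.9 CPM against 8.84, 11.5 and 12.7 CPM (log2 difference -2.28, SE 0.13, adjusted p = 2.81e-11). None of the 3 overlapped between the lines.

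Of the surface proteases and their inhibitors 3 genes were lower and 1 was higher, against 36.2% and 35.1% of all genes tested. ST14, which encodes the membrane protease matriptase, was at 175, 207 and 187 CPM in HCT 116p53-/- cells and at 1.37, 0.701 and 0.743 CPM in the libraries labelled RPL3 KO (log2 difference -7.72, SE 0.21, adjusted p = 2.33e-15). PRSS8, which encodes the protease prostasin, was at 16.0, 19.6 and 20.7 CPM against 0.402, 0.550 and 0.338 CPM (log2 difference -5.38, SE 0.25, adjusted p = 1.8e-12). Both proteases were far below their HCT 116p53-/- range in every library labelled RPL3 KO. Of their inhibitors, SPINT1 was also lower and kept 25.2% of its level (adjusted p = 7.07e-12), whereas SPINT2 was higher, at 242, 221 and 197 CPM against 171, 185 and 176 CPM. That difference was 0.31 on the log2 scale (SE 0.09, adjusted p = 0.00414), and with library size alone it was 0.07 and was not called (adjusted p = 0.56).

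EPCAM, an adhesion protein of the epithelial surface, was at 168, 145 and 147 CPM in HCT 116p53-/- cells and at 37.1, 32.9 and 36.5 CPM in the libraries labelled RPL3 KO (log2 difference -2.11, SE 0.09, adjusted p = 5.84e-13). CEACAM1, an adhesion protein of the carcinoembryonic antigen family, was higher instead, at 5.22, 6.05 and 6.82 CPM against 1.56, 0.620 and 1.45 CPM (log2 difference 2.30, SE 0.29, adjusted p = 1.51e-06). Neither overlapped between the lines. CEACAM5 and CEACAM6, which lie near it on chromosome 19, reached at most 0.338 CPM in any library. Of the 2 epithelial transcription factors of the ETS family, ELF3 was at 36.7, 42.6 and 39.8 CPM against 26.9, 32.7 and 31.5 CPM (log2 difference -0.38, SE 0.12, adjusted p = 0.00816), and EHF was too low to be tested.

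The 5 genes of trafficking, lipid synthesis and other epithelial functions included the 3 with the lowest percent of their HCT 116p53-/- level. KDF1, a factor of epidermal differentiation, was at 18.0, 18.2 and 17.9 CPM in HCT 116p53-/- cells and had no count in the 3 vehicle-treated libraries labelled RPL3 KO. BSPRY, which encodes a protein with B-box and SPRY domains, was at 11.1, 14.1 and 12.8 CPM and likewise had no count. Taking 3 counts in the smallest library as the floor, KDF1 was at least 74.8-fold lower and BSPRY at least 52.7-fold lower. RAB25, a small GTPase of apical recycling, was at 46.3, 48.1 and 45.0 CPM against 0.0803, 0 and 0.0675 CPM, or 2160 counts against 2, a ratio of 1097 with a 95% counting interval of 303 to 9065. AP1M2, the epithelial subunit of the AP-1 adaptor of basolateral sorting, kept 5.20% of its level, and CDS1, an enzyme of phospholipid synthesis, 19.3%. These intervals and floors cover counting error only.

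The promoters of 3 of these genes are shown because they belong to the genes with the fewest counts in the libraries labelled RPL3 KO. Each is the stretch of 250 bases before the RefSeq start on GRCh38.p14, 5′ to 3′ on the strand of the gene, and none of the 3 overlaps a GENCODE v44 gene. KDF1 is at chr1:26960469-26960718 on the minus strand, RAB25 at chr1:156060910-156061159 on the plus strand and BSPRY at chr9:113349291-113349540 on the plus strand. Capitals mark the E-box letters CACCTG or, on the other strand, CAGGTG.
KDF1: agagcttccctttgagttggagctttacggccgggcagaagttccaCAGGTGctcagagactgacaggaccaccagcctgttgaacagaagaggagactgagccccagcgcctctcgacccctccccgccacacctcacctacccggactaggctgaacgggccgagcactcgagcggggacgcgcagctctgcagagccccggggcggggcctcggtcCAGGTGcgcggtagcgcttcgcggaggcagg
RAB25: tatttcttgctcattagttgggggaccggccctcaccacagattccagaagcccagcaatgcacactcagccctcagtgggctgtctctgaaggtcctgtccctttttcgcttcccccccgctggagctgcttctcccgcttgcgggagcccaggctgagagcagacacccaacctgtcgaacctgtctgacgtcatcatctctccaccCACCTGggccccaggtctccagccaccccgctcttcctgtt
BSPRY: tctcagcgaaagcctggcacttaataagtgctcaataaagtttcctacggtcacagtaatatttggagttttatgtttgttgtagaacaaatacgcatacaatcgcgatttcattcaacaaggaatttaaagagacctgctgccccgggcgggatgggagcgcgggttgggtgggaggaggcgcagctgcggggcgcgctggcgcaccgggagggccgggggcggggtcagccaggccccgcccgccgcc

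KDF1 holds the E-box letters 2 times, with first bases at -204 and -31 from the start, and RAB25 holds them 1 time, at -41. The BSPRY window does not hold them, although its counts were as low. In the CRB3 window, which overlaps an exon of the gene and is not printed, they occur 5 times. RefSeq windows were matched for 33 of the 48 genes, 47 windows in all. The other 15 genes had no entry and were not searched. Of the 47 windows, 19 (40.4%) held the letters, against 17.5% of 35116 windows of all genes. Among genes called lower between the lines with vehicle, 18 of 35 windows (51.4%) held them, in 17 of the 23 genes with a window. The genes called lower numbered 36, so that the rest are missing from this share. Among genes called higher, it was 0 of 4 windows, from 4 genes, too few to set the directions apart. The share among all genes called lower, beyond the 48, was not counted. The windows of these genes were also richer in G and C, with a median of 64.8% against 58%, and the part of base composition in the share was not tested. The letters AACCGGTT, bound by grainyhead factors, were in 0 of the 47 windows and in 0.117% of all windows. These are matches of letters only and say nothing of binding.

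Lists of regulators were compared between the lines in the same fit, and their part in the levels of the 48 genes was not tested. Of 14 epithelial transcription and splicing regulators, 11 were tested, of which 7 were lower and 3 higher in the libraries labelled RPL3 KO, with a median log2 difference of -2.96, against 36.2% lower and 35.1% higher over all genes tested. GRHL2, a grainyhead factor, was at 24.0, 29.2 and 27.1 CPM in HCT 116p53-/- cells and at 0, 0.200 and 0.0675 CPM in the libraries labelled RPL3 KO (adjusted p = 9.78e-14). The splicing regulator ESRP2 was at 50.9, 57.2 and 58.9 CPM against 0.482, 0.200 and 0.135 CPM (adjusted p = 1.35e-15). Log2 differences of -6.51 and -6.37 were found for OVOL1 and for CDX2, the intestinal homeobox factor. The 3 that were higher, named after their values were seen, were GRHL1 (log2 difference 1.29), KLF5 (1.19) and KLF4 (1.07). Of 10 mesenchymal regulators and markers, 7 were tested and 6 were higher, against 35.1% of all genes tested. The one not called, also named after its value was seen, was CDH2 (N-cadherin), at a mean of 0.648 against 0.746 CPM (adjusted p = 0.772). SNAI2 was at 26, 37.0 and 33.2 CPM against 0.259, 0.275 and 0.302 CPM (adjusted p = 2.29e-14), ZEB1 at 23.1, 23.9 and 27.8 CPM against 1.81, 1.65 and 1.51 CPM (adjusted p = 3.04e-13), vimentin (VIM) at a mean of 2237 against 22.0 CPM and fibronectin (FN1) at 249 against 22.6 CPM. SNAI2, ZEB1, VIM and FN1 did not overlap between the lines.

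Other genes of the same structures, taken from lists that do not share members with the 48, had members in both directions, in shares to be read against the 35.1% of all genes tested that were higher and the 36.2% that were lower. Of 24 other claudins and tight junction proteins, 12 were tested, 4 were higher and 4 lower, with a median log2 difference of 0.07. CLDN10 had 2 counts in HCT 116p53-/- cells and was at 52.7, 72.8 and 65.9 CPM in the libraries labelled RPL3 KO, a ratio of 1519 with a counting interval of 420 to 12549. CLDN6 was higher by 1.97 and ILDR2, a protein of tricellular junctions, had a log2 difference of -3.04. Of 17 other adherens junction proteins, 10 were tested, with 4 higher and 3 lower (median 0.01). CDH6, a kidney and neural cadherin, was at 5.62, 6.30 and 5.87 CPM against 0.259, 0 and 0.0604 CPM. The log2 differences of NECTIN3 and ARVCF were -2.01 and -1.52, while that of afadin (AFDN) was 0.97. Of 7 other desmosomal proteins 3 were tested, of which epiplakin (EPPK1) was lower by the test (log2 difference -4.05) and PERP higher (1.12). Of 21 other polarity proteins 19 were tested, with 7 higher and 7 lower (median 0.03). LIN7A had no count in the vehicle-treated libraries labelled RPL3 KO, at least 4.72-fold lower, PARD6G and PARD6B had log2 differences of -2.80 and -1.94, and DLG2 was higher at 3.06.

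The lines were also compared with Act D on both sides. In the libraries labelled RPL3 KO, 33 of the 48 genes were lower and 3 (CLDN1, CLDN12 and CEACAM1) were higher than in HCT 116p53-/- cells, and 7 tested genes were not called, against 35.3% of all genes tested lower and 35.1% higher. The median log2 difference of the 43 tested was -2.15, and -0.02 over all genes. All 33 and all 3 were called in the same direction with vehicle. The 5 genes called with vehicle and not with Act D were CGN, CTNND1, PKP2, CLDN15 and SPINT2, of which CTNND1 was at 188, 170 and 197 CPM against 196, 172 and 179 CPM. The comparisons share no library, but the lines are the same.

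Within a line, few genes were called with Act D, both among these genes and among all genes tested. In HCT 116p53-/- cells 3 of the 43 tested were higher (6.98%) and 3 lower (6.98%) than with vehicle, against 7.59% and 11.1% of all genes tested. The median log2 change of the 43 was 0.09 (0.02 over all). NECTIN4 rose from 1.75, 2.00 and 1.75 CPM to 6.67, 5.34 and 5.15 CPM, a log2 change of 1.64 (SE 0.30, adjusted p = 0.000762). CLDN4 rose from 44.9, 48.9 and 45.6 CPM to 63.9, 65.6 and 64.1 CPM (log2 change 0.47, SE 0.12, adjusted p = 0.00984). JUP rose from 173, 198 and 214 CPM to 245, 247 and 254 CPM (log2 change 0.35, SE 0.11, adjusted p = 0.0299). With library size alone the changes of CLDN4 (0.37, adjusted p = 0.0726) and JUP (0.25, adjusted p = 0.175) were not called. PATJ fell from 56.1, 50.7 and 54.9 CPM to 36.8, 35.6 and 37.6 CPM (log2 change -0.56, SE 0.12, adjusted p = 0.00301). BSPRY was at 8.47, 10.0 and 8.12 CPM with Act D, and PKP2 went from 25.7, 23.3 and 27.6 CPM to 18.3, 17.6 and 23.2 CPM. Both were lower close to the threshold, with log2 changes of -0.51 (adjusted p = 0.0496) and -0.38 (adjusted p = 0.048), and in none of the 6 genes did the groups overlap. The call of BSPRY was lost without any one of the 6 libraries (adjusted p 0.0529 to 0.193). Leaving out vehicle replicate 1 or 3 or Act D replicate 1 or 2 removed that of PKP2 (0.101 to 0.196), and leaving out vehicle replicate 1 or 2 or any Act D library removed that of JUP (0.0689 to 0.135). With upper-quartile scaling or a replicate block neither BSPRY nor PKP2 was called.

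In the libraries labelled RPL3 KO, 2 of the 43 genes tested were higher (4.65%) and 3 lower (6.98%) with Act D, against 3.51% and 8.4% of all genes tested. CTNNA1, already low, fell further from 33.7, 28.0 and 33.9 CPM to 18.0, 21.0 and 14.5 CPM (log2 change -0.83, SE 0.12, adjusted p = 0.000132). CLDN4 fell from 21.7, 19.8 and 15.1 CPM to 14.9, 10.2 and 13.4 CPM (log2 change -0.54, SE 0.14, adjusted p = 0.0188) and DSP from 37.3, 33.7 and 33.0 CPM to 28.6, 28.0 and 19.4 CPM (log2 change -0.44, SE 0.11, adjusted p = 0.0168). DSG2 rose from 81.5, 77.5 and 81.0 CPM to 104, 98.4 and 96.8 CPM (log2 change 0.32, SE 0.08, adjusted p = 0.0161). None of these overlapped between the treatments. Without vehicle replicate 1 both CLDN4 (adjusted p = 0.072) and DSP (0.0539) were not called, CLDN4 was also not called without vehicle replicate 2 (0.0579) or Act D replicate 2 (0.0693), and DSG2 was not called without vehicle replicate 2 (0.0572) or Act D replicate 1 (0.0713). With only these 6 libraries in the fit CLDN4, DSP and DSG2 were not called, nor was DSG2 with library size alone (adjusted p = 0.188) or without the filter (0.0904). KDF1 was called higher on 3, 1 and 1 counts against 0 in each vehicle-treated library, so that both groups were at or under the floor and no fold is given. Its call (adjusted p = 0.0269) was lost without any vehicle-treated library or without Act D replicate 1, with adjusted p up to 0.143 over the alternatives.

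The responses to Act D differed between the lines for 6 of the 48 genes by the test of the difference itself, 3 in each direction, against 3.3% and 3.23% of all genes tested. CLDN4 changed by 0.47 in HCT 116p53-/- cells and by -0.54 in the libraries labelled RPL3 KO, a difference of -1.01 on the log2 scale (SE 0.19, adjusted p = 0.00346), and both changes were themselves called. The difference in response was -0.72 for CTNNA1 (SE 0.15, adjusted p = 0.00852) and -0.63 for DSP (SE 0.15, adjusted p = 0.0184), whose changes in HCT 116p53-/- cells were -0.12 and 0.19 and did not pass the test. In the other direction it was 0.86 for PATJ (SE 0.18, adjusted p = 0.00911) and 0.75 for PKP2 (SE 0.19, adjusted p = 0.0227), which had fallen in HCT 116p53-/- cells and changed by 0.31 and 0.38 in the libraries labelled RPL3 KO without passing the test. The sixth was KDF1 (adjusted p = 0.037), on the few counts above, whose adjusted p ranged from 0.0296 to 0.176 over the alternatives. Its call was lost without Act D replicate 1 or 2 of HCT 116p53-/- and without any vehicle-treated library or Act D replicate 1 of those labelled RPL3 KO, and also with DESeq2 (adjusted p = 0.0503) and without the filter (0.0537). The difference for PKP2 was not called without vehicle replicate 3 (adjusted p = 0.0583), Act D replicate 1 (0.069) or Act D replicate 2 (0.0686) of HCT 116p53-/- or without Act D replicate 1 of the libraries labelled RPL3 KO (0.0869).

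**Figure D4:**
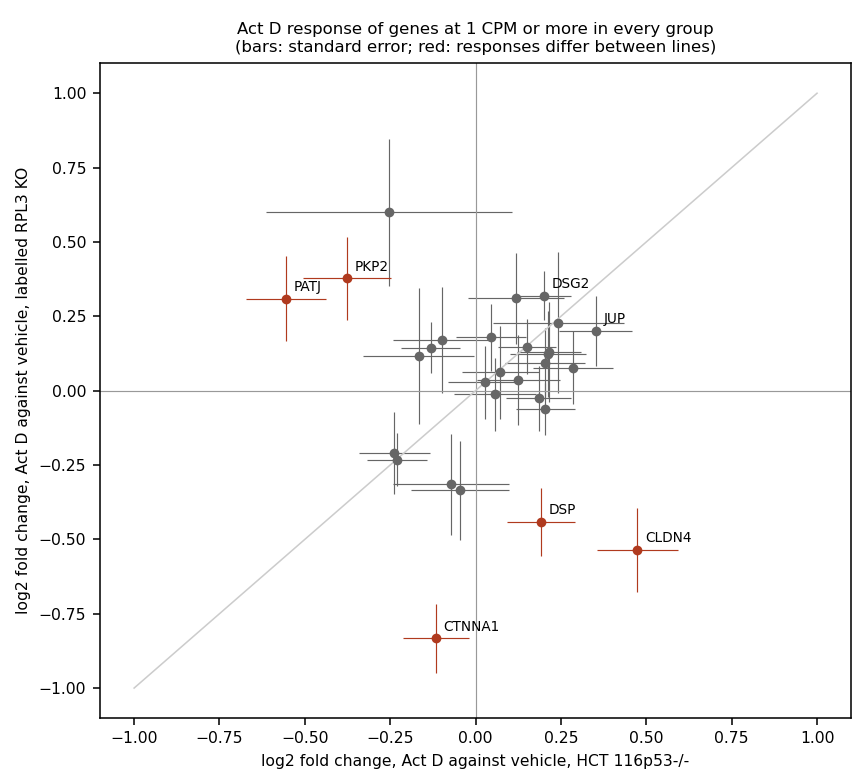
Log2 change with Act D in HCT 116p53-/- cells (horizontal) and in the libraries labelled RPL3 KO (vertical) for the 29 genes with a mean of at least 1 CPM in every group, with bars for the standard error and a line where both changes are equal. Red points are genes whose responses differed between the lines by the test, namely CLDN4, DSP and CTNNA1 below the line and PATJ and PKP2 above it. Most grey points gather near zero on both axes, whereas CEACAM1, not called in either line, lies at -0.25 and 0.60.

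The 9 genes under 2% with vehicle were not at the same small level in every library labelled RPL3 KO. Their summed CPM, as a percent of the mean summed CPM of HCT 116p53-/- cells with the same treatment, was 0.469%, 0.434% and 0.518% with vehicle and 0.759%, 0.972% and 0.0745% with Act D. Act D replicate 3 thus stood below the other 5 libraries: it had 4 counts over the 9 genes, of which 6 had none, against 35 to 65 counts in the others. A further 168 genes had at least 5 CPM in vehicle-treated HCT 116p53-/- libraries and under 2% of that in vehicle-treated libraries labelled RPL3 KO. Their summed percent was 0.967%, 0.954% and 1.2% with vehicle and 1.54%, 1.94% and 0.939% with Act D. Their median gene was at 0.104% in Act D replicate 3 and at 0.599% to 1.38% in the other 5. In the reverse direction, 208 genes of this kind that were high in the libraries labelled RPL3 KO summed to 0.624% to 0.707% in HCT 116p53-/- libraries with vehicle and to 1.15% to 1.55% with Act D, and CLDN1 was between 0% and 0.766%. The 9, 168 and 208 genes were chosen by their vehicle-treated means, so their low percents with vehicle follow from the choice. No difference between vehicle and Act D is read from them. Where these residual counts come from was not tested.

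**Figure D5:**
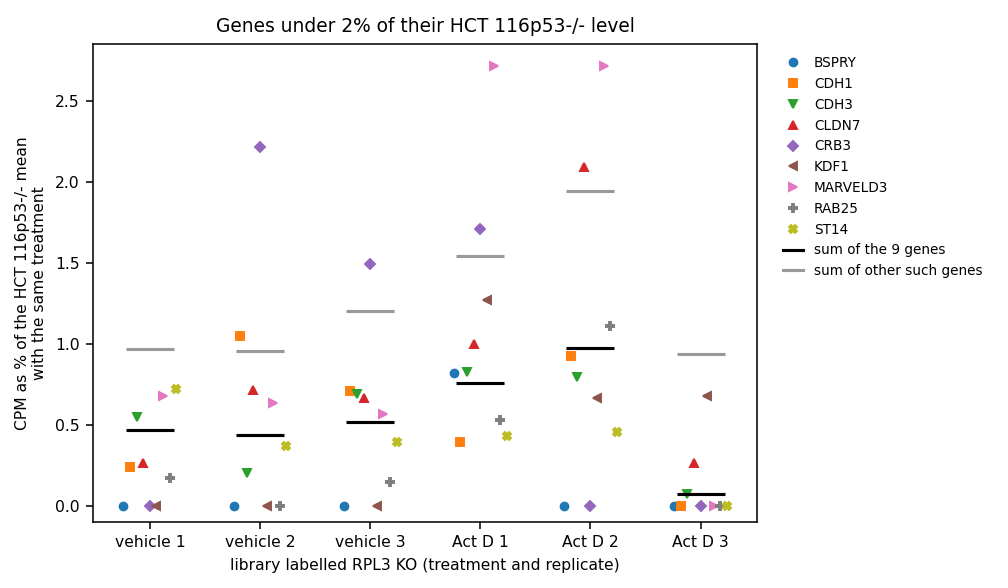
CPM of each of the 9 genes in each library labelled RPL3 KO, as a percent of the mean in HCT 116p53-/- libraries with the same treatment. Black lines show the summed CPM of the 9 genes and grey lines that of 168 other genes under 2% with vehicle. The 168 also had at least 5 CPM in vehicle-treated HCT 116p53-/- libraries, a limit not set for the 9. The black lines lie between 0.434% and 0.972% in 5 libraries and at 0.0745% in Act D replicate 3.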

How the data were processed

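RNA-seq was done on 12 libraries, 3 in each of 4 groups, grouped by the labels. Per the labels and the submitters' processing notes, the authors estimated expected counts and TPM per gene with RSEM 1.2.25 on hg38. The deposited expected counts were rounded to whole numbers. The deposited file of vehicle-treated HCT 116p53-/- replicate 2 was at transcript level and was summed to genes. Deposited TPM was used mainly to compare genes with each other, and where it is given for both lines no test was made on it. Gene names came from GENCODE v44, which matched 60261 of 60617 identifiers.

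Counts of all 12 libraries were fitted together by group with edgeR 4.0.16 (glmQLFit and glmQLFTest, R 4.3.3) after filterByExpr (15692 genes tested) and TMM scaling (factors 0.847 to 1.15), with Benjamini-Hochberg adjustment over all genes tested and a threshold of 0.05. CPM was computed on TMM-scaled library sizes. Totals were 10087925 to 21138886 counts per library, and 3 counts, taken as the floor, were 0.150 to 0.348 CPM. Count ratios carry exact 95% binomial intervals. The fit was also run on simulated counts in which a small set of genes was changed by known folds in a single group. Far more genes were called between the lines, a setting that the simulation did not cover.

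The genes and the lists were chosen with earlier results of these data known. Every one of the 48 genes is named in the text or the plots. Values per library are given for the 2 genes of largest fold change in each role, for genes higher or not called between the lines with vehicle, and for up to 3 genes in each direction with Act D, and up to 4 genes are named per other list. Titles number the replicates of each group 1 to 3, whereas the descriptions number the Act D libraries labelled RPL3 KO 4 to 6. Alternatives were a likelihood-ratio test, DESeq2 1.42.0, 2 other scalings, 2 other filters, a replicate block, fits of only the groups compared, a fold limit, a limit on residual levels and the removal of each library.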

Additional observations from a re-analysis of the deposited data

Results flagged for a closer look

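The response to Act D differed between the lines, by the interaction term of edgeR's quasi-likelihood test, for 6 of the 48 genes. The differences, given as the log2 change in the libraries labelled RPL3 KO minus that in HCT 116p53-/- cells, were -1.01 for CLDN4, -0.72 for CTNNA1, -0.63 for DSP, 0.86 for PATJ and 0.75 for PKP2. For KDF1 the fitted value was 4.31, which depends on the prior count of the fit and is neither a fold nor a bound. CLDN4, CTNNA1, DSP and PATJ were called under 19 of 19 alternatives, PKP2 under 15 and KDF1 under 11. The value of KDF1 rests on 5 counts in the Act D libraries labelled RPL3 KO and none with vehicle.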

How the results depend on the processing

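For the 41 genes called between the lines with vehicle, 567 of 574 alternative values kept direction and call, and for the 36 called with Act D, 504 of 504 did. The corresponding counts were 61 of 84 for Act D in HCT 116p53-/- cells, 54 of 69 for Act D in the libraries labelled RPL3 KO and 102 of 114 for the difference in response, and 0 values of called genes reversed. Scaling by library size alone moved the median log2 difference of all genes between the lines from -0.02 to -0.26 with either treatment, and turned the RPL3 difference to -0.11 with vehicle and -0.13 with Act D. It moved the genes called higher and lower over all genes from 5501 and 5684 to 4202 and 6974 with vehicle, from 5503 and 5540 to 4244 and 6825 with Act D, from 1191 and 1748 to 551 and 2309 for Act D in HCT 116p53-/- cells, and from 551 and 1318 to 227 and 1858 in the libraries labelled RPL3 KO. Upper-quartile scaling gave 1480 and 1519, and 944 and 1012, for these Act D comparisons. Of the 48 genes, with library size alone 3 rather than 5 were higher between the lines with vehicle, 1 rather than 3 rose with Act D in HCT 116p53-/- cells and 1 rather than 2 in the libraries labelled RPL3 KO. With only the groups compared in the fit, the genes that rose numbered 6 in HCT 116p53-/- cells and 0 in the libraries labelled RPL3 KO, where 1 rather than 3 fell. Upper-quartile scaling left 1 rather than 3 that fell in HCT 116p53-/- cells. A log2 limit of 1 left 2 higher between the lines with vehicle, 1 that rose and 0 that fell with Act D in either line, and 1 in each direction for the difference in response. With genes under 2% of the other line left out, 1 rose with Act D in the libraries labelled RPL3 KO. Leaving out 1 library at a time gave 4 to 5 higher and 36 lower between the lines with vehicle, 3 higher and 33 to 35 lower with Act D, 2 to 4 that rose and 1 to 2 that fell with Act D in HCT 116p53-/- cells, 0 to 3 and 1 to 3 in the libraries labelled RPL3 KO, and 1 to 4 higher and 3 to 4 lower responses. The number that fell in HCT 116p53-/- cells was 1 without vehicle replicate 1 or 3 or Act D replicate 1 or 2. In the libraries labelled RPL3 KO the number that rose was 0 without vehicle replicate 2 or Act D replicate 1 and 1 without vehicle replicate 1 or 3, and the number that fell was 1 without vehicle replicate 1. The number of higher responses was 1 without Act D replicate 1 or 2 of HCT 116p53-/- or Act D replicate 1 of those labelled RPL3 KO. The causes of these shifts were not tested.

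Same-numbered libraries of different groups did not deviate together (r between -0.347 and 0.181 over 18 pairs, and between -0.319 and 0.291 over 36 pairs of different number), so the replicate numbers are not taken as a pairing. A replicate block left 1 rather than 3 genes that fell with Act D in HCT 116p53-/- cells and moved none of the other counts of the 48 genes by more than 1.5 times. Depth limits the genes near the floor, where a level in the libraries labelled RPL3 KO rests on a few counts.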

Other observations

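On the TPM scale, which allows genes to be ranked against each other, SPINT2 led the 48 genes in both lines with vehicle. It was at 103 ± 3.2 TPM in HCT 116p53-/- cells and 89.3 ± 18 TPM in the libraries labelled RPL3 KO (SD, n = 3). By CPM SPINT2 was called higher in the libraries labelled RPL3 KO, whereas its mean TPM was not higher there. In HCT 116p53-/- cells EPCAM (94.6 TPM), CTNNA1 (79.8 TPM), CLDN7 (52.5 TPM) and JUP (51.7 TPM) came next, and in the libraries labelled RPL3 KO CTNND1 (19.0 TPM), EPCAM (16.0 TPM), ELF3 (12.2 TPM), TJP1 (11.9 TPM) and CLDN1 (11.7 TPM).

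Within the catenins with vehicle, CTNNB1 (beta-catenin) held 41% of the summed TPM in HCT 116p53-/- cells and 73.2% in the libraries labelled RPL3 KO. CTNNA1 held 29.1% and 6.89%, and JUP 19.0% and 6.07%. The sum itself was 274 and 138 TPM and CTNNB1 was at 112 and 101 TPM, so its share rose without a rise in its TPM. Among the plakophilins PKP3 held 60.7% and 35.2%, and PKP4, which is not among the 48 genes, 25.5% and 49.1%. Their sum was 38.9 and 14.5 TPM, and PKP4 itself was at 9.89 and 7.13 TPM. By counts PKP4 was not called between the lines with vehicle (log2 difference -0.09). For RPL3 and SPINT2 the mean TPM was lower in the libraries labelled RPL3 KO with vehicle, whereas the mean CPM was higher. A lower TPM in those libraries is therefore not read as lower expression by itself. Of the summed TPM of 9 cadherin genes, CDH3 made up 75.6% and CDH1 23.7% in HCT 116p53-/- cells. In the libraries labelled RPL3 KO the sum was 1.64 TPM, of which CDH6 made up 55.0%. MARVELD2 and OCLN, which lie 48.0 kb apart on chromosome 5, kept 16.6% and 18.6% of their level between the lines with vehicle. LGR5, an intestinal stem cell marker, was at 0.0676 CPM or less in HCT 116p53-/- libraries and at 1.61 to 4.19 CPM in those labelled RPL3 KO.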
